A study of Homo sapiens with 6 samples.

Results

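The TGF-beta and BMP pathway genes described here are 10 genes chosen by name for their place in the pathway, with earlier results of these data known: the ligand genes TGFB1, TGFB2 and BMP4, the receptor genes TGFBR1 and TGFBR2, the signal transducer genes SMAD3 and SMAD7, and the target genes ID1, ID2 and ID3. Each was found by matching its GENCODE 29 gene ID to a row of the count table, which gave 10 of 58735 rows, and 9 of the 10 passed the filter on low counts that left 14370 genes for testing. The RNA came from HCT116, an established human colorectal carcinoma line grown in serum. In the vector group, labelled WT, the cells carried an empty lentiviral vector. The cells of the SETD8 group overexpressed SETD8, a histone methyltransferase whose gene is now called KMT5A. Both groups went through puromycin selection, with 3 libraries each. The protocol speaks of stable clones selected after lentiviral transduction and the design text of plasmid transfection, and neither says how many clones stood behind a library or that replicates were separate cultures. The p-values therefore measure the spread between these libraries, which may be technical.

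TGF-beta and BMP ligands are secreted proteins that bring together type I and type II receptor kinases. The receptors of the TGF-beta branch phosphorylate SMAD2 and SMAD3, and those of the BMP branch SMAD1, SMAD5 and SMAD9, all of which enter the nucleus with SMAD4. ID genes are among the best known direct targets of BMP signals and SMAD7 is a feedback inhibitor induced by both branches. The pathway restrains growth in normal colonic epithelium, and HCT116, a mismatch repair-deficient line, is known to carry inactivating frameshift mutations in TGFBR2. Read counts per gene do not show alleles.

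Libraries held 17056672 to 20471843 counts, and 3 counts, taken as the floor, stood at 0.15 to 0.17 CPM (read counts relative to library size after TMM scaling; the floor covers counting error only). KMT5A was higher in every SETD8 library, with 46.0, 47.3 and 53.9 CPM in vector replicates 1, 2 and 3 and 65.4, 66.2 and 75.5 CPM in SETD8 replicates 1, 2 and 3 (edgeR adjusted p = 0.0156). Vector replicate 1 stood apart from its group on the first principal component, at -0.94 against 25.7 and 39.3 for vector replicates 2 and 3 and -23.8 to -16.5 for the SETD8 libraries. Of 8 markers of colorectal epithelium, EPCAM, CDH1, KRT8, KRT18, KRT19 and CDX2 were tested, while VIL1 and LGALS4 had at most 4 counts in any library. The adhesion gene CDH1 was lower with SETD8 (log2 fold change -0.54, edgeR adjusted p = 0.0218). EPCAM (0.0033), KRT8 (-0.09), KRT18 (-0.23), KRT19 (0.15) and CDX2 (0.16) were not called, and the median log2 fold change of the 6 was -0.04.

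All 3 ID genes and SMAD7 were higher in the SETD8 libraries, by 1.38-fold to 1.75-fold, while none of the tested ligand and receptor members was called in either direction. Higher calls were thus 4 of the 9 tested members, against 3.08% over the whole table (quasi-likelihood test of edgeR, adjusted p under 0.05 by Benjamini-Hochberg), and lower calls 0 of 9, against 4.75%. At an unadjusted p under 0.05 the counts were 4 higher and 1 lower, the lower gene being SMAD3. The share of all genes at that unadjusted level is not given here. With adjusted p, DESeq2 and limma-voom gave the same 4 higher and 0 lower. The groups did not overlap for 4 members in the upward direction, against 14.4% of all genes, and for 1 member downward, against 15.9%. The median log2 fold change of the 9 members was -0.03 and that of all tested genes 0.00047, so the members did not share a direction. In these bulk samples, fewer cells of a kind and less RNA per cell cannot be told apart.

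**Figure D1:**
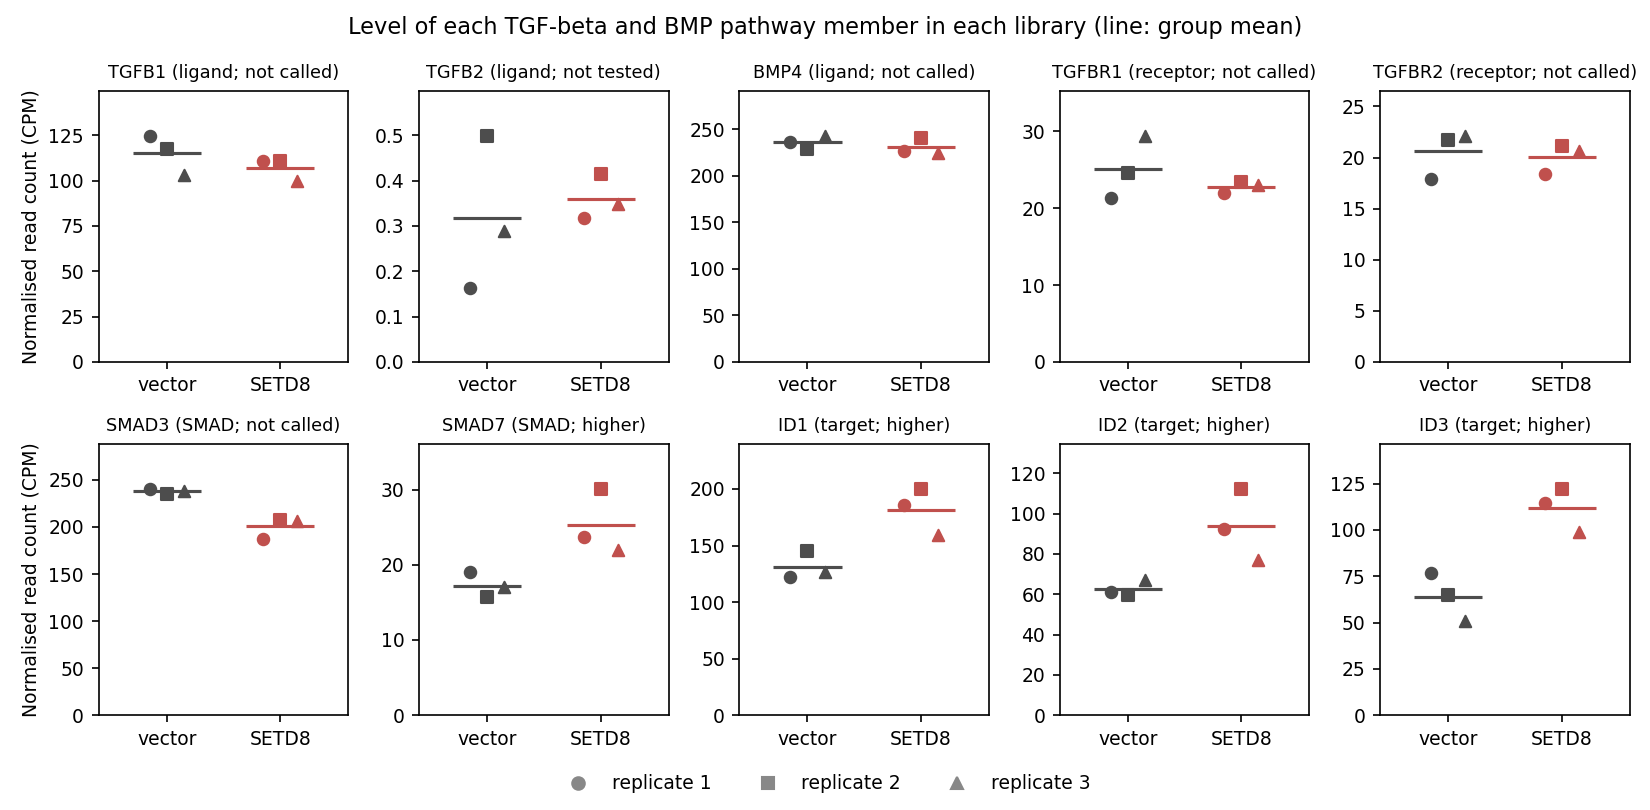
Normalised read count (CPM, vertical axes from 0, each with its own scale) of the 10 members in the 3 vector and 3 SETD8 libraries, with a symbol for each replicate number and a line at the group mean. For SMAD7, ID1, ID2 and ID3 every SETD8 point lies above every vector point, and for SMAD3 every SETD8 point lies below.

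The starts of the 3 ID genes are shown first, because these genes were higher together. All 10 members had a promoter entry in the RefSeq table (GRCh38.p14), and the windows below run from 40 to 11 bases before the annotated start, with capitals for the letters TATAAA read on either strand. They lie at chr20:31605249-31605278 (plus strand) for ID1, chr2:8682016-8682045 (plus strand) for ID2 and chr1:23559512-23559541 (minus strand) for ID3. Of the 250 bases before the RefSeq start, GENCODE 29 exons cover 6 for ID1, 202 for ID2, 250 for ID3 and 250 for SMAD7, so for the last 3 these windows lie largely or wholly within annotated exons.
ID1: tggcgtgTTTATAAAagacaagctgtggct
ID2: gcgagtgcggataaaagccgccccgccggg
ID3: caggcaggctctataagtgaccgccgcggc
Only the ID1 window holds TATAAA. It is found there as overlapping matches on opposite strands. The letters occur within 250 bases before the start in 10.7% of the 35116 promoters of the table.

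The longer upstream stretch of ID1, up to the first GENCODE exon base, shows the second motif, CCAAT, whose letters stand in capitals on the opposite strand along with TATAAA (chr20:31605039-31605282, plus strand).
ID1 upstream: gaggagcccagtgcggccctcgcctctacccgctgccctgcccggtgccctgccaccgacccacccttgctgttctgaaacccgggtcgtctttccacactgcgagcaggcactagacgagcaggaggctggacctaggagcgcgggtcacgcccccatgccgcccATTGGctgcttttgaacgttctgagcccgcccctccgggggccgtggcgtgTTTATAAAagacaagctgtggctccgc
CCAAT had 1 match in the 250 bases before the start of ID1, 3 before that of ID2 and 0 before that of ID3, against a match in 32% of all promoters. The letters GGCGCC, an element described at BMP-responsive genes, the palindrome GTCTAGAC bound by SMAD3 and SMAD4, and CATTCC, bound by TEAD factors, had 0 matches on either strand in this window of ID1, ID2, ID3 or SMAD7, for which the most upstream of its 3 listed starts was used. Among all promoters 16.4% held GGCGCC, 0.182% GTCTAGAC and 11.9% CATTCC. SMAD3 held 2 matches of GGCGCC and BMP4 held 1. TGFB2 held 1 of CATTCC. These matches describe letters in a short window and nothing about binding.

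ID3 showed the largest difference among the members. The ID proteins are helix-loop-helix proteins without a DNA-binding region, which pair with basic helix-loop-helix factors and keep them from DNA. ID3 (ENSG00000117318, chr1:23557918-23559794) had 76.7, 64.6 and 50.6 CPM in vector replicates 1, 2 and 3 and 114.5, 122.1 and 98.9 CPM in SETD8 replicates 1, 2 and 3. The groups did not overlap, and vector replicate 1, the library apart on the principal component, was the highest of its group. It rose from a mean of 64.0 ± 13.1 CPM to 111.8 ± 11.8 (SD, n = 3 each), a log2 fold change of 0.81 (SE 0.13, 95% interval 0.52 to 1.09, edgeR adjusted p = 0.00699). Without vector replicate 1 the log2 fold change of ID3 was 0.95, against 0.63 for SMAD7, 0.42 for ID1 and 0.57 for ID2, and all 4 were called. In that fit 12% of all genes were called higher.

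ID2 had 60.9, 59.6 and 67.1 CPM in vector replicates 1, 2 and 3 and 92.4, 112.2 and 77.0 CPM in SETD8 replicates 1, 2 and 3. The vector libraries lay close together, with a coefficient of variation of 6.45%, and the SETD8 libraries were spread, with 18.8%, yet the lowest SETD8 library was above the highest vector library. ID2 (ENSG00000115738, chr2:8678845-8684453) rose from a mean of 62.5 ± 4.03 CPM to 93.9 ± 17.6 (SD, n = 3 each; log2 change 0.59, SE 0.12, 95% interval 0.32 to 0.85, edgeR adjusted p = 0.0161). An antisense gene, ID2-AS1, overlaps 38 of its exon bases.

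ID1, the most abundant member per base of transcript, had 122.1, 144.9 and 126.5 CPM in vector replicates 1, 2 and 3 and 185.5, 200 and 159.1 CPM in SETD8 replicates 1, 2 and 3. Again no SETD8 library fell within the vector range. ID1 (ENSG00000125968, chr20:31605283-31606515) rose from a mean of 131.1 ± 12.1 CPM to 181.5 ± 20.7 (SD, n = 3 each), a log2 fold change of 0.47 (SE 0.10, 95% interval 0.25 to 0.69, edgeR adjusted p = 0.0186). The ID genes are short, with exon lengths of 1233 bases for ID1, 1797 for ID3 and 2205 for ID2, against a median of 4745 over all tested genes and 3083 over all that were higher. When each library's trend with length was removed, ID1 (log2 fold change 0.27, edgeR adjusted p = 0.144) and ID2 (0.43, 0.0656) lost their calls, while ID3 (0.64, 0.00217) and SMAD7 (0.55, 0.0194) were called.

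SMAD7, the inhibitory SMAD that blocks type I receptors and brings ubiquitin ligases to them, was higher from a low level. It had 19.0, 15.7 and 17 CPM in vector replicates 1, 2 and 3 and 23.7, 30.1 and 22.0 CPM in SETD8 replicates 1, 2 and 3, again without overlap. It rose from a mean of 17.2 ± 1.64 CPM to 25.3 ± 4.26 (SD, n = 3 each; log2 change 0.55, SE 0.14, 95% interval 0.25 to 0.85, edgeR adjusted p = 0.0316). SMAD7 lies at chr18:48919853-48952052 (ENSG00000101665) and its exons span 5033 bases, longer than the median gene.

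SMAD7, ID1, ID2 and ID3 ranked the SETD8 libraries alike. Replicate 2 was the highest and replicate 3 the lowest for each of the 4 genes. BMP4, which was not called, had the same order (226.4, 241.3 and 224.6 CPM in SETD8 replicates 1, 2 and 3). The share of all genes with this order is not given here. Over the ID genes together, the summed level was 392.4, 434.3 and 335.0 CPM in SETD8 replicates 1, 2 and 3 and 244.2 to 269.1 CPM in the vector libraries. KMT5A was highest in SETD8 replicate 3, the library with the lowest ID sum. A relation between KMT5A and the ID genes was not tested.

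**Figure D2:**
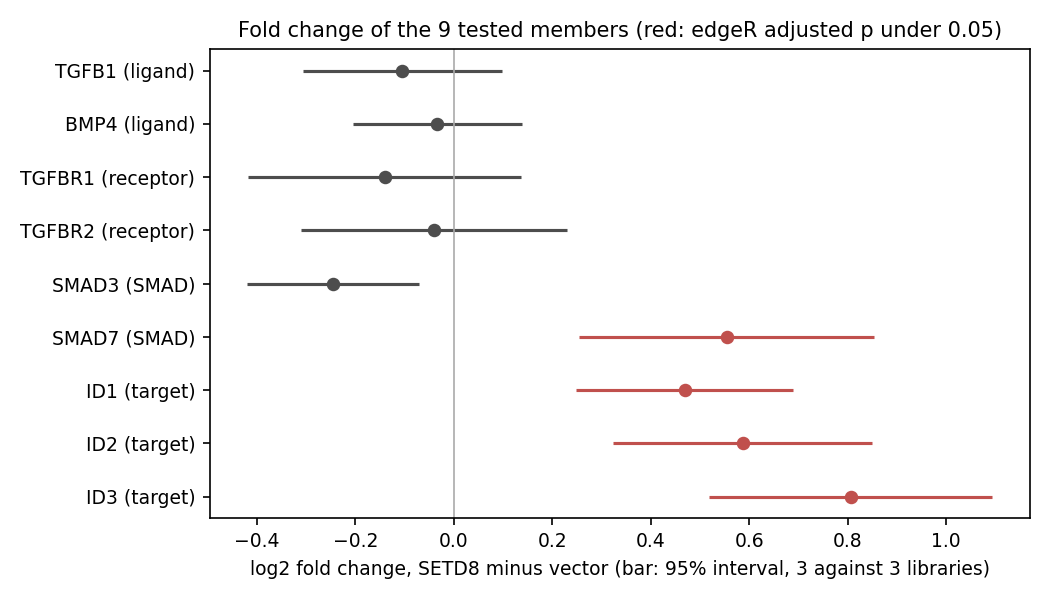
Log2 fold change (SETD8 minus vector, horizontal axis) of the 9 tested members with 95% intervals from the edgeR fit over 3 against 3 libraries, called members in red. SMAD7, ID1, ID2 and ID3 lie between 0.47 and 0.81, and the ligand and receptor intervals all include 0.

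With single libraries left out, the 4 genes were higher by similar amounts but did not always pass the threshold. The log2 fold change ranged from 0.41 to 0.64 for SMAD7, from 0.40 to 0.56 for ID1, from 0.44 to 0.71 for ID2 and from 0.67 to 0.95 for ID3. At an unadjusted p under 0.05 all 4 were higher in each of these fits. Without vector replicate 2, edgeR adjusted p was 0.149 for SMAD7, 0.0632 for ID1, 0.105 for ID2 and 0.0531 for ID3, so none was called. Without SETD8 replicate 1 it was 0.0994, 0.101, 0.0815 and 0.0515 for the same genes. SMAD7, ID1 and ID2 were not called without SETD8 replicate 2 (0.142, 0.0953 and 0.0804), and neither was SMAD7 without SETD8 replicate 3 (0.0709). Over all genes, too, 0.17% were higher without vector replicate 2 and 0.00679% without SETD8 replicate 1. The share was 0.306% without SETD8 replicate 2 and 0.305% without SETD8 replicate 3.

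**Figure D3:**
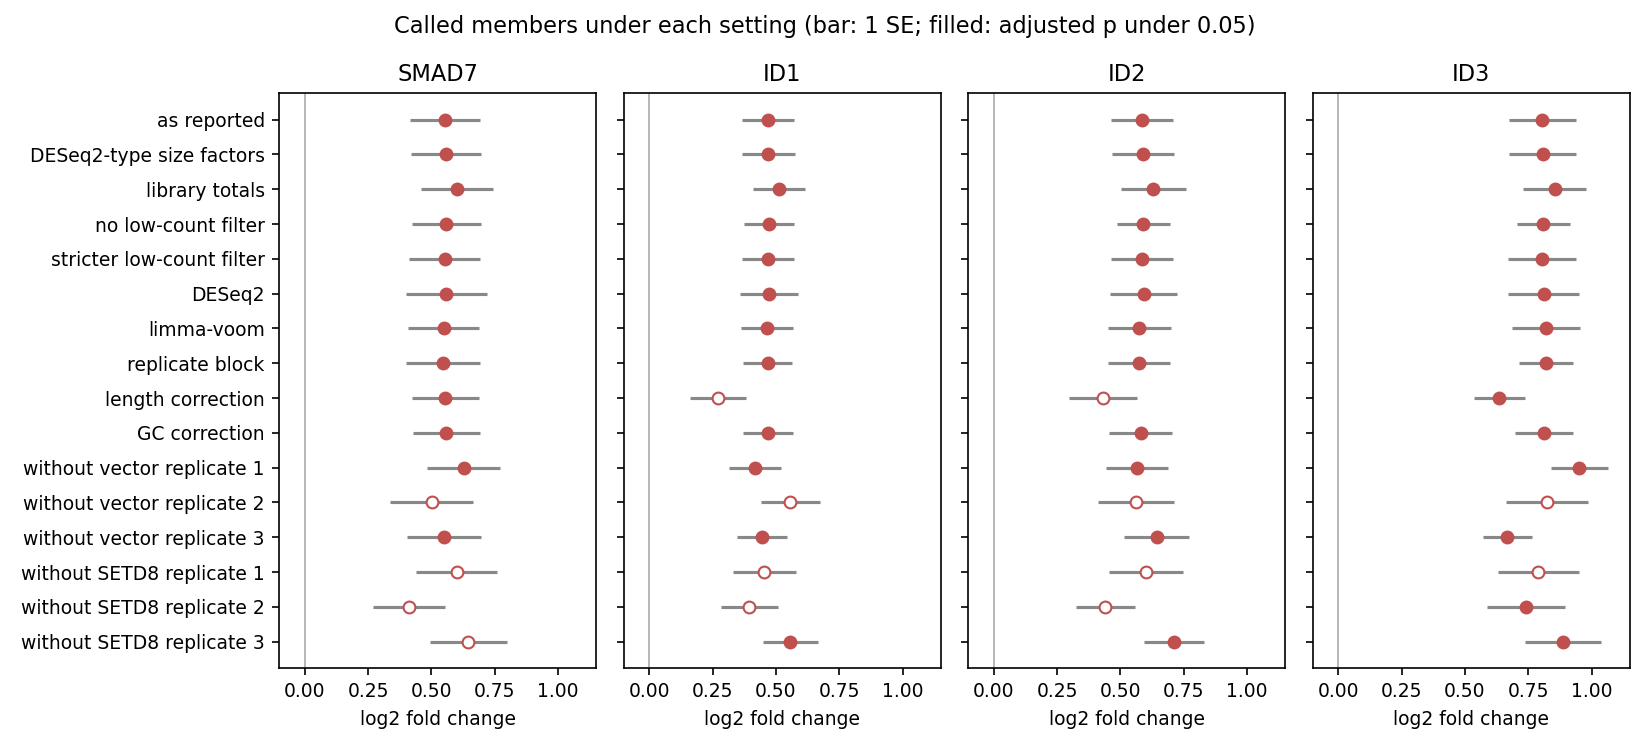
Log2 fold change (horizontal axes, bars of 1 SE) of SMAD7, ID1, ID2 and ID3 as reported and under each alternative scaling, filter, tool, correction and left-out library, with filled points for adjusted p under 0.05. Every point lies above 0, from 0.27 for ID1 with length correction to 0.95 for ID3 without vector replicate 1.

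SMAD3, the receptor-activated transducer of the TGF-beta branch, was the only member whose SETD8 libraries all lay below the vector libraries, and it did not pass the test. It had 240.4, 235.4 and 237.8 CPM in vector replicates 1, 2 and 3 and 187.4, 207.8 and 206.7 CPM in SETD8 replicates 1, 2 and 3. The vector values differed by little, with a coefficient of variation of 1.06%. Means were 237.9 ± 2.53 and 200.6 ± 11.5 CPM (SD, n = 3 each; log2 change -0.25, SE 0.08, 95% interval -0.42 to -0.07, edgeR adjusted p = 0.0776). SMAD3 (ENSG00000166949, chr15:67063763-67195195) was called without vector replicate 1 (log2 fold change -0.24, edgeR adjusted p = 0.0497). In that fit 1738 of all 14715 genes were lower. With length correction its log2 fold change was -0.14 (edgeR adjusted p = 0.276). Its exon bases number 9113 and an antisense gene covers 182 of them.

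BMP4, a ligand of the BMP branch, was the most abundant ligand member and did not pass the test. It had 236.7, 228.8 and 243.2 CPM in vector replicates 1, 2 and 3 and 226.4, 241.3 and 224.6 CPM in SETD8 replicates 1, 2 and 3, so the groups overlapped. The log2 fold change of BMP4 (ENSG00000125378, chr14:53949736-53958761) was -0.03 (SE 0.08, edgeR adjusted p = 0.827). The 95% interval was -0.21 to 0.14, and the log2 fold change of every called member lies above it. BMP4 stood at 0.01 with library totals, the scaling that moved the median of all genes by 0.043.

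TGFB1, the most widely expressed TGF-beta ligand gene, had 124.8, 117.7 and 103.3 CPM in vector replicates 1, 2 and 3 and 111.1, 110.9 and 99.6 CPM in SETD8 replicates 1, 2 and 3. These ranges overlapped, with a difference of -0.10 on the log2 scale (SE 0.09, 95% interval -0.31 to 0.10, edgeR adjusted p = 0.508). TGFB1 (ENSG00000105329, chr19:41301587-41353911) shares 215 of its exon bases with HNRNPUL1 on the opposite strand, and whether the counting used strand is not stated by any source used. TGFB2 (ENSG00000092969, chr1:218346235-218444619), a second ligand gene of this branch, was close to the floor. It had 3, 10 and 5 counts in vector replicates 1, 2 and 3 and 6, 8 and 6 counts in SETD8 replicates 1, 2 and 3, and was not tested. TGFB2-OT1 on the same strand covers 26.6% of the exon bases of TGFB2, so reads there may have been assigned elsewhere.

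The receptor members were expressed at low, similar levels and did not differ beyond the spread between libraries. TGFBR1, which encodes the type I kinase, had 21.4, 24.7 and 29.4 CPM in vector replicates 1, 2 and 3 and 21.9, 23.4 and 23.1 CPM in SETD8 replicates 1, 2 and 3. The difference on the log2 scale was -0.14 (SE 0.13, 95% interval -0.42 to 0.14, edgeR adjusted p = 0.517). TGFBR2, which encodes the type II kinase that binds ligand, had 17.9, 21.7 and 22.1 CPM in vector replicates 1, 2 and 3 and 18.4, 21.1 and 20.6 CPM in SETD8 replicates 1, 2 and 3. In both genes vector replicate 1 was the lowest library. The log2 fold change of TGFBR2 (chr3:30606502-30694142) was -0.04 (SE 0.13, 95% interval -0.31 to 0.23, edgeR adjusted p = 0.872), and it was above 0 without vector replicate 2 (0.0095), vector replicate 3 (0.015) or SETD8 replicate 1 (0.020), never called. TGFBR1 lies at chr9:99104038-99154192.

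Per kilobase of exon, the members covered a wide range of levels. In vector libraries ID1 was highest at 106 ± 9.79 CPM per kb, followed by BMP4 at 76.7 ± 2.33 (SD, n = 3 each). TGFB1 (35.6 ± 3.38), ID3 (35.6 ± 7.27) and ID2 (28.4 ± 1.83) came next, and the ranges of neighbours in this run overlapped. SMAD3 stood at 26.1 ± 0.28 CPM per kb, below the range of ID2. TGFBR2 (4.38 ± 0.49), TGFBR1 (3.68 ± 0.59) and SMAD7 (3.42 ± 0.33) overlapped each other in order, and TGFB2 was last at 0.062 ± 0.033 CPM per kb. In SETD8 libraries ID3 (62.2 ± 6.59) and ID2 (42.6 ± 7.99) stood above TGFB1 (33.1 ± 2.04) with no overlap between neighbours, and SMAD7 (5.02 ± 0.85) overlapped TGFBR2 (4.26 ± 0.31).

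The genes whose pattern over the 6 libraries was most like each called member were found among 10493 genes with a symbol and a mean of at least 5 CPM, by Pearson correlation of log2 CPM. This describes the libraries, which share the group difference, and carries no test. POLG2 followed SMAD7 most closely (r = 0.9995), then TMEM259 and RDH10. DNAJB2 (0.994), UBE2D1 and MTF2 followed ID1, and TRIM2 (0.992), SRSF5 and ZFAND1 followed ID2. For ID3 they were MOB2 (0.997), SDF2 and POLD4. No list of 3 held another member. At least 0.95 was reached by 225 genes for ID3 and by 50, 23 and 25 for SMAD7, ID1 and ID2.

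The wider pathway was read from 7 lists, which held 100 other genes, 68 of them tested. Of these, 10 were lower and 0 higher (edgeR adjusted p under 0.05; at an unadjusted p under 0.05, 20 lower and 4 higher), and the median log2 fold change was -0.13. At the adjusted threshold the lower calls of all genes were 4.75% and the higher calls 3.08%. The share of all genes at an unadjusted p under 0.05 is not given here, so the unadjusted counts have no background. DESeq2 called 13 lower and 1 higher of 88 such genes, against 830 and 691 of all 27442. With limma-voom 9 were lower and 0 higher, against 621 and 469 of all 14370. Without vector replicate 1 the counts were 20 lower and 3 higher of 69, against 1738 lower and 1771 higher of all 14715. The share of all genes called higher was then 12%. With no low-count filter 17 were lower and 1 higher of 88, against 1051 and 949 of all 27442. Length correction gave 10 lower and 2 higher, against 729 and 519 of all genes, and 1 of the falls called as reported lost its call. Library totals gave 8 lower and 1 higher, against 505 and 792 of all genes. The lists were chosen with earlier results of these data known, so their counts are descriptions.

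Among BMP target genes other than the ID members, 0 of 8 tested genes were called in either direction, and the list median was 0.19. The homeobox gene MSX1 had 183.2 ± 28.3 CPM in vector libraries against 222.5 ± 16.3 CPM with SETD8 (SD, n = 3 each; log2 change 0.28, edgeR adjusted p = 0.126). BAMBI, which encodes a decoy receptor, had a log2 fold change of 0.10 (edgeR adjusted p = 0.624). At an unadjusted p under 0.05, MSX1 and HES1, a transcriptional repressor gene named after its value was seen, stood higher (HES1 log2 fold change 0.40, edgeR adjusted p = 0.186, groups not overlapping). With 3.08% of all genes higher, a count of 0 among 8 is near the background. None of the 6 other SMAD genes was called, with a median of 0.13; SMAD2 had -0.14 and SMAD5 0.07 (edgeR adjusted p = 0.401 and 0.709). At an unadjusted p under 0.05 SMAD1, named after its value was seen, was higher (log2 fold change 0.46, edgeR adjusted p = 0.136). TGIF1, of the antagonist and TGF-beta target lists and also named after its value was seen, was higher at that level too. Its log2 fold change was 0.27 (edgeR adjusted p = 0.058, groups not overlapping). Over all the wider lists, 20 genes were lower and 4 higher at this unadjusted level, the called genes included.

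TGF-beta target genes had downward calls, with 5 of 19 lower, against 4.75% of all genes. The list had 0 higher, against 3.08% of all genes, and a median of -0.45. FN1, the fibronectin gene, fell from a mean of 32.6 CPM to 17.2 (SD 9.53 and 1.94, n = 3 each; log2 change -0.92, SE 0.18, edgeR adjusted p = 0.0125). Other falls were CCN2, a matricellular protein gene whose groups overlapped (-0.76, edgeR adjusted p = 0.0457), and KLF10, an early-response transcription factor gene (-0.45, edgeR adjusted p = 0.0429). CCN2 is also a known target of YAP. The cell cycle inhibitor gene CDKN1A (0.19, edgeR adjusted p = 0.448) and JUNB (0.22, edgeR adjusted p = 0.193) were not called. Fibroblast markers summed to 4.85 to 7.32 CPM in vector libraries against 3.50 to 4.83 CPM with SETD8, with 1 of 8 tested and COL1A2, DCN and PDGFRA at 0 counts in each library. The tested marker, COL1A1, made up most of these sums, with 4.52 to 6.22 CPM in vector libraries and 3.28 to 4.65 CPM with SETD8. COL1A1 is also in the TGF-beta target list and was not called (log2 fold change -0.41, edgeR adjusted p = 0.2355). The part of fibroblast markers in these falls was not tested. Endothelial markers summed to at most 2.54 CPM and immune markers to at most 0.48 CPM.

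Genes that hold TGF-beta in its latent form or release it were called downward in 2 of 8 cases, against 4.75% of all genes. The list median was -0.39. THBS1, which encodes thrombospondin-1, an activator of latent TGF-beta, fell from a mean of 37.5 ± 9.46 CPM to 17.8 ± 2.93 (SD, n = 3 each; log2 change -1.08, SE 0.18, edgeR adjusted p = 0.00699). LTBP4, which encodes a latent TGF-beta binding protein, fell from 120.7 ± 8.94 to 88.6 ± 3.01 CPM (log2 change -0.45, edgeR adjusted p = 0.0128). LTBP3 (-0.28, edgeR adjusted p = 0.0811) and the convertase gene FURIN (-0.34, 0.0535) did not pass. Of 15 antagonists and inhibitors, CHRD, which encodes the BMP antagonist chordin, fell from 16.2 ± 2.93 to 8.80 ± 1.25 CPM (log2 change -0.88, SE 0.17, edgeR adjusted p = 0.0114). FSTL1, a secreted follistatin-like protein gene, fell as well (-0.49, edgeR adjusted p = 0.0457). Lower calls were thus 2 of 15, against 4.75% of all genes. Higher calls were 0 of 15, which is near the 3.08% of all genes. The ubiquitin ligase gene SMURF2 (-0.23) and the corepressor gene SKI (-0.15) did not pass.

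Of 7 other ligand genes tested, 1 was lower, against 4.75% of all genes, and 0 higher, against 3.08%. The lower gene was BMP1, which encodes a procollagen and chordin-cleaving protease and not a signalling ligand (-0.42, edgeR adjusted p = 0.0226). The stress-induced ligand gene GDF15 (0.12, edgeR adjusted p = 0.478) and BMP8B (-0.27, edgeR adjusted p = 0.220) were not called. None of 12 other receptor genes passed, which is near those shares of all genes, and the list median was -0.04. ACVR1B had a log2 fold change of 0.07 and ACVR2B -0.49 (edgeR adjusted p = 0.702 and 0.0898). All 10 falls of the wider pathway lost their call without vector replicate 2 and without SETD8 replicate 1 (highest edgeR adjusted p = 0.191 and 0.178), 8 lost it without SETD8 replicate 3, 7 without SETD8 replicate 2 and 4 without vector replicate 3 (0.168, 0.169 and 0.195). With all libraries, FSTL1 lost its call with library totals, limma-voom and length correction. KLF10 lost its call with library totals and limma-voom.

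**Figure D4:**
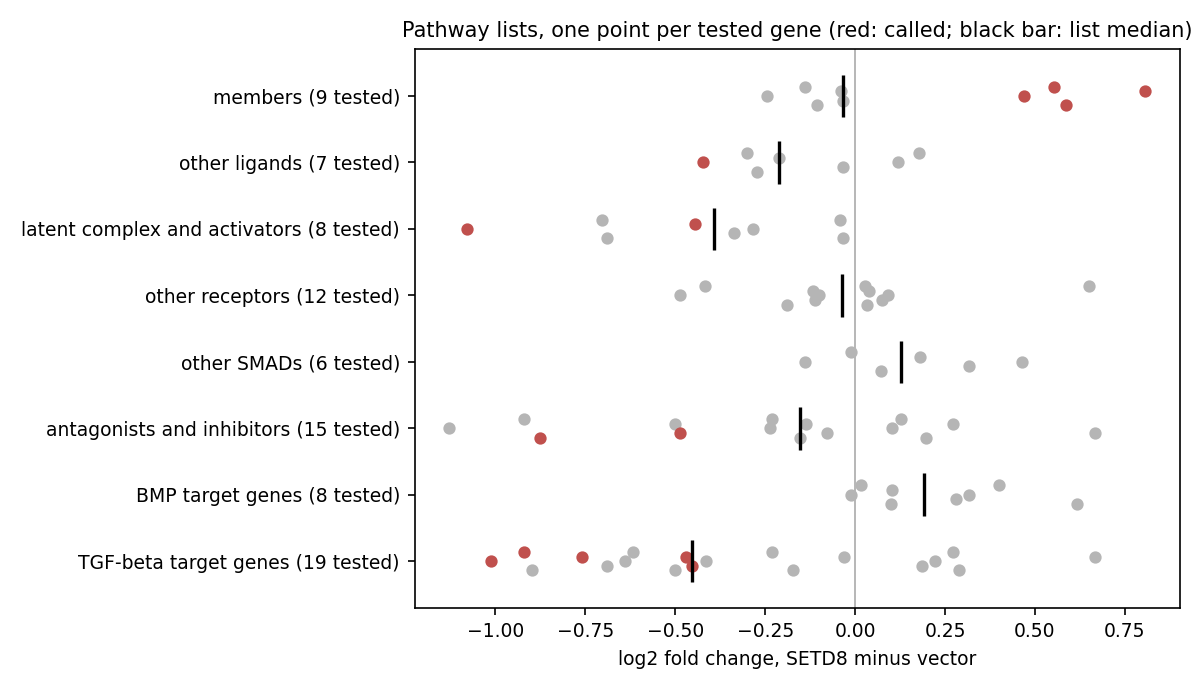
Log2 fold change (SETD8 minus vector, horizontal axis) of each tested gene in the members and 7 wider lists, called genes in red and list medians as black bars. Red points lie to the right only among the members. To the left they lie among latent complex genes, antagonists and TGF-beta targets, and in the ligand list for BMP1 alone, which is not a signalling ligand.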

How the data were processed

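Poly(A) RNA of 6 HCT116 libraries was sequenced with a strand-marking kit, per the labels' protocols. The authors deposited whole-number read counts per gene for 58735 Ensembl IDs, not normalized. Per the submitters' processing notes, the aligners HISAT2 and STAR, the counters HTSeq and featureCounts and the build GRCh38 (hg38) were named, without roles. The setting for strand is not stated by any source used. Columns named NC were taken as the vector group, the only group other than SETD8, and 0 columns belonged to other samples. All 58735 IDs matched GENCODE 29 (GRCh38, primary assembly), which gave positions and exon-union lengths.

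filterByExpr left 14370 genes. Groups were compared with the quasi-likelihood test of edgeR 4.0.16 (robust; limma 3.58.1, R 4.3.3) after TMM scaling, without covariates. Tests were two-sided, and p-values were adjusted by Benjamini-Hochberg over every tested gene at a threshold of 0.05. SE is the log2 fold change divided by the square root of F. Log2 CPM used a prior count of 2. Alternatives were other scalings, filters and tools (DESeq2 1.42.0, limma-voom), a replicate block, length and GC corrections (lowess, span 0.3) and leaving out each library.

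The test was tested on simulated data first. The promoter letters TATAAA and CCAAT were chosen after the sequences had been seen. Members and lists were chosen with earlier results of these data known. Named genes were all members, all called genes of the lists (some are not reported here) and up to 2 uncalled genes of each list by mean CPM. Figures used matplotlib 3.10.9.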

Additional observations from a re-analysis of the deposited data

How the results depend on the processing

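The members' count of 4 higher and 0 lower was the same under both other scalings, both other filters, DESeq2, limma-voom and GC correction. With length correction 2 were higher, ID1 and ID2 having lost their calls. With a library left out the members' count ranged from 0 to 4 higher and from 0 to 1 lower. Among all genes, 682 were lower and 443 higher as reported. Higher genes numbered 792 with library totals, 949 with no low-count filter and 691 with DESeq2, and lower genes 1051 with no low-count filter. Library totals thereby moved the share of falls among calls from 60.6% to 38.9%. With a library left out, lower genes ranged from 10 to 1738 and higher genes from 1 to 1771; fewer libraries enter those fits. With the replicate block 645 genes were lower and 532 higher, and the members' calls were the same. Same-numbered libraries deviated from their group means with a correlation of 0.025, 0.0078 and -0.064 for replicates 1, 2 and 3. Differently numbered libraries ranged from -0.095 to 0.092. With deviations taken from means of 3 libraries, these values cannot show whether same-numbered libraries share a batch. BMP4 and TGFBR2 were uncalled throughout, and with library totals both had a log2 fold change just above 0 (0.0091 and 0.0018). TGFB2, at 3 to 10 counts a library, was below the depth needed to enter the test.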
